A study of Homo sapiens with 48 samples.

Results

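Genes of cholesterol and fatty acid synthesis were followed in AMO1 cells after silencing of IRE1 or XBP1. The group held 32 of the 58302 rows of the count table, picked by gene symbol, and all 32 were among the 18445 genes that passed the filter on low counts over the 48 libraries. They fell into 7 genes of the mevalonate pathway, 11 genes of the sterol branch, 5 regulators of these genes and 9 genes of fatty acid and lipid synthesis. The symbols were chosen for their function, not for their measured values, but with earlier results of these data known.

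AMO1 is a human plasma cell tumor line used as a model of multiple myeloma. RNA was sequenced from 4 derived lines, each grown from a single clone, in which doxycycline (Dox) turns on short hairpin RNAs: shIRE1 clones 1 and 3 (genotype label IRE1 sh7,8,9) and shXBP1 clones 1 and 18 (genotype label XBP1 sh4,6,7). Every line was collected without treatment (0 h) and after 24, 48 and 72 h in 0.2 ug/ml Dox, with 3 libraries from separate flasks at each time, which gave 16 groups. Libraries of Dox-treated cells with a non-targeting hairpin were not analysed here, so that within a line the effect of Dox itself and that of the hairpins cannot be told apart, and each p-value speaks of the libraries of the named clones.

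Cholesterol is built from acetyl-CoA through mevalonate, farnesyl diphosphate and squalene to lanosterol, which a series of enzymes of the endoplasmic reticulum (ER) then trims to cholesterol. Most of these enzymes, and many of fatty acid synthesis, are transcribed under sterol regulatory element-binding proteins (SREBPs), made as ER membrane precursors from SREBF1 and SREBF2. When ER sterol falls, the escort protein SCAP carries the precursors to the Golgi for cleavage, and when sterol is plentiful INSIG proteins hold them back. Plasma cells keep an extended ER for antibody secretion, and XBP1, whose mRNA IRE1 splices, is known to promote ER lipid synthesis.

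The libraries held 19177855 to 40767202 counts, so that 1 count was worth at most 0.0559 CPM (counts per 1000000 counts of a library, with TMM factors), and the lowest member count in any library was 172, for TM7SF2. The targeted gene fell in all 4 lines, to different degrees. At 48 h, the log2 change of ERN1, which encodes IRE1, was -0.66 ± 0.04 (adjusted p = 4.25e-11) in shIRE1 clone 1 and -1.86 ± 0.05 (adjusted p = 2.64e-13) in shIRE1 clone 3, and that of XBP1 was -2.24 ± 0.07 (adjusted p = 9.70e-09) in shXBP1 clone 1 and -1.94 ± 0.09 (adjusted p = 7.90e-08) in shXBP1 clone 18 (edgeR quasi-likelihood test, ± SE). XBP1 also fell in both shIRE1 clones at 48 h, by 0.45 and 0.95 on the log2 scale. ERN1 rose in shXBP1 clone 1 at 48 h (0.62 ± 0.04, adjusted p = 3.47e-06) and fell in shXBP1 clone 18 (-0.29 ± 0.06, adjusted p = 0.0146). All 7 plasma cell markers were expressed in every library (SDC1 at 5105 to 15245 CPM), and of 10 markers of other cell types 9 stayed at or under 2.29 CPM in every library, the exception being CD3E at 4.59 to 17.3 CPM. The library labelled shXBP1 clone 18, 72 h, replicate 3 stood with shXBP1 clone 1 at all 26 genes that separated these clones by a log2 difference of at least 3 at 0, 24 and 48 h. Counts of members called in shXBP1 clone 18 against 0 h, and in the shIRE1 minus shXBP1 responses, are therefore given with and without it. Some member values are as well. Differences between the shXBP1 clones, and changes of markers, ERN1, XBP1 and further genes, come only from fits that hold it. In shIRE1 clone 3 at 24 h, the library labelled replicate 1 correlated with the other libraries of its group at 0.992 and with shIRE1 clone 1 at 24 h at 0.994, and without it 24 rather than 22 members passed the test in shIRE1 clone 3 at 24 h.

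Before Dox, the members spanned a wide range of levels. Per kilobase of exon (RPKM, from the union of annotated exons), the 4-line median was highest for SCD at 202, ACLY at 129.9 and INSIG1 at 116 and lowest for FADS2 at 2.63, TM7SF2 at 3.00, MVK at 3.16 and ACSS2 at 3.49. The clones of one hairpin set started from different levels, and most of the differences lay in one direction. At 0 h, 15 members were lower and 3 higher in shIRE1 clone 1 than in clone 3 (edgeR, adjusted p under 0.05, all 18445 genes: 21.4% lower, 19.2% higher). Also at 0 h, 19 were lower and 4 higher in shXBP1 clone 1 than in clone 18 (all genes: 26.8% lower, 24.5% higher). The median log2 difference over the members was -0.15 and -0.30, against -0.02 and -0.01 over all genes.

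INSIG1, which retains SREBP precursors in the ER, stood at 308, 262 and 272 CPM in the 3 libraries of shIRE1 clone 1 and at 599.6, 544 and 539.7 CPM in those of clone 3. In shXBP1 clone 1 it was at 257, 303 and 287 CPM and in clone 18 at 854, 882 and 868 CPM, so that the clones of each set did not overlap. The log2 difference was -1.0 ± 0.10 (adjusted p = 3.02e-10) and -1.62 ± 0.11 (adjusted p = 8.95e-16). ACSS2, which makes acetyl-CoA from acetate, showed the largest difference of any member between the shXBP1 clones, 6.83, 7.15 and 6.36 CPM in clone 1 against 25.9, 28.1 and 29.0 CPM in clone 18 (-2.03 ± 0.14, adjusted p = 9.36e-15 on the log2 scale). It was also lower in shIRE1 clone 1 than in clone 3, 12.2, 10.1 and 10.6 against 26.1, 24.9 and 26.1 CPM. FADS1, a desaturase of polyunsaturated fatty acids, differed by -1.19 ± 0.05 (adjusted p = 8.31e-21) between the shIRE1 clones and by -1.03 ± 0.05 (adjusted p = 1.60e-18) between the shXBP1 clones. Against this direction, ACLY, which cleaves citrate to acetyl-CoA, was higher in clone 1 in both sets, by 0.26 ± 0.04 and 0.16 ± 0.04. SREBF1 was lower in shIRE1 clone 1 than in clone 3 (-0.68 ± 0.19, adjusted p = 0.00349), and between the shXBP1 clones its difference was 0.00 ± 0.19 (adjusted p = 0.988).

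**Figure D1:**
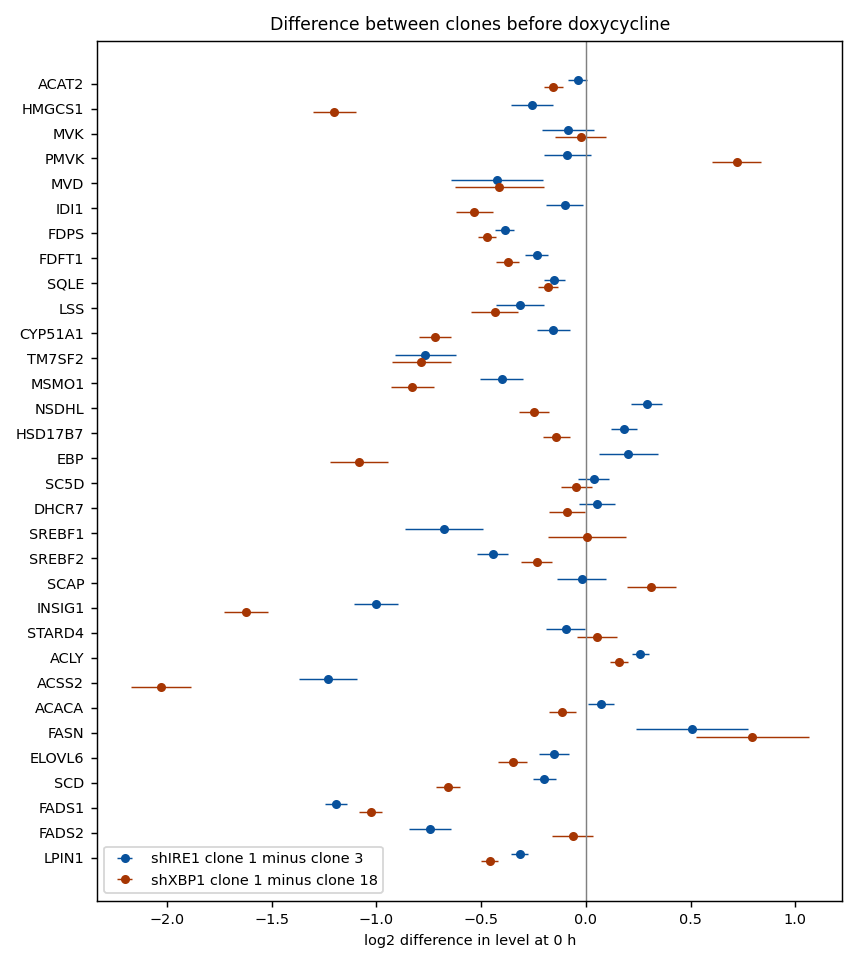
Log2 difference in level at 0 h (x axis) of each of the 32 genes (y axis, ordered by role) between shIRE1 clones 1 and 3 (blue) and between shXBP1 clones 1 and 18 (brown). Points are fitted differences and bars 1 SE, with values below 0 lower in clone 1. INSIG1 lies at -1.0 and -1.62, and ACSS2 at -1.23 and -2.03, while ACLY and FASN lie above 0 in both pairs.

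After Dox most members passed the test in both shIRE1 clones, and the direction differed between the clones and over time. In shIRE1 clone 1, 15 members rose and 8 fell at 24 h, where 32.4% of all 17154 genes tested rose and 29.0% fell. At 48 h 12 rose and 13 fell (all genes: 33.9% and 31.5%), and at 72 h 10 rose and 11 fell (32.5% and 31.1%). In this clone the members lay on both sides of 0, as all genes did, and their median log2 change was 0.10, -0.09 and -0.04 at the 3 times against 0.04, 0.03 and 0.02 over all genes. In shIRE1 clone 3, 9 members rose and 13 fell at 24 h (22.8% and 23.3% of 17204 genes), 3 rose and 23 fell at 48 h (31.6% and 31.6%) and 2 rose and 22 fell at 72 h (29.7% and 30.5%). Here the median log2 change of the members was -0.14 at 24 h, -0.62 at 48 h and -0.59 at 72 h, while that of all genes was 0.03, 0.02 and 0.02.

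Markers of plasma cells also changed in the shIRE1 clones. At 48 h, 5 of the 7 plasma cell markers were lower and 1 (SLAMF7) higher in shIRE1 clone 1, and all 7 were lower in clone 3. Their summed level was 12687 to 14490.4 CPM at 0 h and 8281 to 9378 CPM at 48 h in clone 1, and 15685 to 17454 and then 8319 to 8546 CPM in clone 3. JCHAIN, the joining chain of secreted antibody, changed by -1.04 ± 0.04 in clone 1 and -2.12 ± 0.09 in clone 3 on the log2 scale. TNFRSF17, the receptor BCMA, changed by -1.14 ± 0.04 and -2.67 ± 0.08. The summed level of the 10 markers of other cell types was 6.92 to 7.27 CPM at 0 h and 18.6 to 19.8 CPM at 48 h in clone 1, and 8.41 to 8.91 and then 16.9 to 17.6 CPM in clone 3, most of it CD3E. CD3D, PAX5 and COL1A2 were at 0 in 42, 43 and 45 of the 48 libraries. At 48 h MS4A1, a B cell marker, rose by 3.01 ± 0.29 in clone 1 and 3.24 ± 0.37 in clone 3 on the log2 scale. It stayed at or under 2.29 CPM in every library. COL1A1 rose by 2.15 ± 0.45 in clone 3 and was not called in clone 1, and CD14 changed by -3.13 ± 0.58 in clone 1, both from low levels. In the shXBP1 clones at 48 h, 3 plasma cell markers were lower and 3 higher in clone 1, and 2 lower and 1 higher in clone 18. Their summed level was 15991 to 19442 CPM at 0 h and 11736 to 13058 CPM at 48 h in clone 1, and 16553 to 16935 and then 13604 to 15480.2 CPM in clone 18. The part of these markers in the members' changes was not tested.

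Both shIRE1 clones agreed on 16 members at 48 h. Of these 13 fell in both (21.9% of the 16795 genes tested in both clones did so), namely ACAT2, HMGCS1, IDI1, FDPS, SQLE, CYP51A1, NSDHL, HSD17B7, EBP, DHCR7, ACLY, ELOVL6 and SCD. TM7SF2, SREBF1 and LPIN1, 3 members, rose in both, as did 21.7% of all genes. A further 6 rose in clone 1 and fell in clone 3 (LSS, SC5D, SREBF2, ACSS2, FADS1 and FADS2), as did 3.04% of all genes, and none fell in clone 1 and rose in clone 3 in this test. SCAP, ACACA and FASN passed in neither clone at 48 h, and the other 7 members passed in 1 clone. Single libraries decided this for SCAP, ACACA and FASN. In edgeR, SCAP fell in clone 1 without replicate 1 of 0 h or 48 h (adjusted p = 0.0156 and 0.00758). ACACA fell in clone 3 without 0 h replicate 1 (-0.30, adjusted p = 3.89e-04). FASN fell in clone 1 without 48 h replicate 1 (adjusted p = 0.0302). It rose in clone 3 without 0 h replicate 3 or 24 h replicate 1 (adjusted p = 0.00855 and 0.0466).

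**Figure D2:**
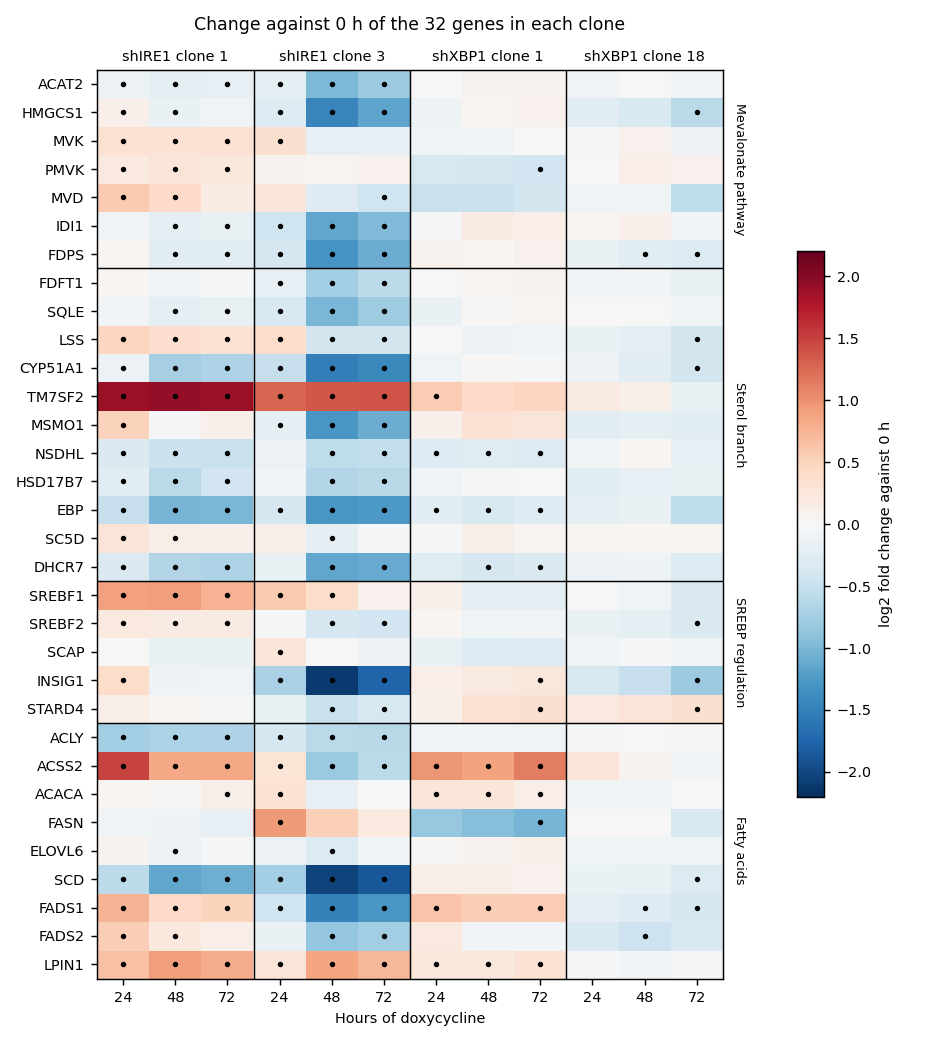
Log2 fold change against 0 h (color, blue lower and red higher) of the 32 genes (rows, grouped by role) at 24, 48 and 72 h of Dox (columns, hours) in each of the 4 lines. Dots mark an adjusted p under 0.05 in the edgeR test of that line. In shIRE1 clone 3 at 48 h 23 of the 32 genes are lower and 3 higher, while in shXBP1 clone 18 at 24 h no gene passes.

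Among the 7 genes of the mevalonate pathway, 4 fell in both shIRE1 clones at 48 h (21.9% of all genes) and the fall was deeper in clone 3. HMGCS1, the synthase that forms HMG-CoA, went from 580.5, 514 and 514 CPM at 0 h to 491, 456 and 495 CPM at 48 h in clone 1. In clone 3 it went from 640.2, 645 and 635 to 221, 239 and 242 CPM. All 48 h libraries lay below all 0 h libraries in both clones, with a log2 change of -0.15 ± 0.05 (adjusted p = 0.00776) and -1.46 ± 0.05 (adjusted p = 6.37e-12). In clone 1 the call was lost without the 0 h replicate 1 (adjusted p = 0.0662) or the 48 h replicate 2 (adjusted p = 0.0575). FDPS, the synthase of farnesyl diphosphate, went from 176, 165 and 167 to 146, 143 and 142 CPM in clone 1. FDPS went from 229.7, 219 and 216 to 88.7, 93.8 and 91.1 CPM in clone 3. Neither pair of groups overlapped, and the log2 change was -0.24 ± 0.05 (adjusted p = 2.43e-04) and -1.29 ± 0.05 (adjusted p = 5.59e-12). FDPS has pseudogene copies in the same table, with which reads may be shared.

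ACAT2, the thiolase that opens the pathway, changed by -0.22 ± 0.04 in clone 1 and -0.99 ± 0.05 in clone 3, and IDI1, the isomerase of isopentenyl diphosphate, by -0.21 ± 0.06 and -1.15 ± 0.07, all 4 past the threshold. The kinases and the decarboxylase in the middle of the pathway moved differently. MVK, mevalonate kinase, rose in clone 1 (0.31 ± 0.08, adjusted p = 0.00196) and was at -0.18 ± 0.11 (adjusted p = 0.167) in clone 3. PMVK, the next kinase, rose by 0.28 ± 0.07 in clone 1 and stood at 0.07 ± 0.09 (adjusted p = 0.551) in clone 3. MVD, the decarboxylase, was at 0.43 ± 0.15 (adjusted p = 0.0194) and -0.28 ± 0.16 (adjusted p = 0.148), with an SE above that of any other member of the pathway. In clone 1 its call was lost without any 1 of 3 libraries (0 h replicates 1 and 2 and 48 h replicate 1, with adjusted p from 0.0638 to 0.184). The median log2 change of the 7 genes at 48 h was -0.15 in clone 1 and -0.99 in clone 3.

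In the sterol branch, 6 of 11 genes fell and 3 rose in shIRE1 clone 1 at 48 h, and 10 fell and 1 rose in clone 3. Of all genes, 31.5% fell and 33.9% rose in clone 1 and 31.6% fell and 31.6% rose in clone 3, so that the 3 rises in clone 1 were near the background share. EBP, a sterol isomerase of the ER, fell most by the mean of both clones. It was at 75.0, 79.1 and 76.6 CPM at 0 h and 37.6, 39.2 and 35.8 CPM at 48 h in clone 1. EBP was at 72.0, 62.2 and 66.2 CPM and then 27.4, 27.2 and 28.3 CPM in clone 3. The 48 h libraries held about 0.49 and 0.41 of the 0 h level, a log2 change of -1.03 ± 0.06 (adjusted p = 1.96e-11) and -1.28 ± 0.08 (adjusted p = 1.10e-09). CYP51A1, the lanosterol demethylase, went from 214, 203 and 188 to 121, 115 and 127 CPM in clone 1. CYP51A1 went from 226, 229.6 and 219 to 76.6, 79.2 and 79.4 CPM in clone 3. The log2 change was -0.74 ± 0.05 (adjusted p = 2.26e-10) and -1.53 ± 0.05 (adjusted p = 3.27e-12). For both genes, no 48 h library of either clone reached a 0 h library. Exons of EBP and CYP51A1 share bases with unnamed gene models on the same strand, with which reads may be shared.

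TM7SF2, a sterol reductase, was the only sterol branch gene called higher in both clones at 48 h, from a low level. In clone 1 it stood at 6.58, 6.42 and 7.39 CPM at 0 h, 24.7, 25.0 and 26.1 CPM at 24 h and 26.8, 25.8 and 24.9 CPM at 48 h. In clone 3 it stood at 12.3, 9.73 and 12.6 CPM at 0 h, 24.4, 30.5 and 29.9 CPM at 24 h and 30.9, 29.3 and 30.0 CPM at 48 h. The libraries of 24 and 48 h overlapped in both clones and all lay above 0 h, and the rise at 48 h was 3.81-fold in clone 1 and 2.58-fold in clone 3 (1.93 ± 0.08, adjusted p = 3.68e-13, and 1.37 ± 0.12, adjusted p = 7.03e-08 on the log2 scale). Its exons share 18 bases with VPS51 on the same strand.

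The other 8 sterol branch genes fell in clone 3, with values on either side of 0 in clone 1. MSMO1, a methylsterol oxidase, was at -0.03 ± 0.05 (adjusted p = 0.637) in clone 1 and fell by 1.28 in clone 3 on the log2 scale. FDFT1, squalene synthase, was at -0.07 ± 0.03 (adjusted p = 0.0697) and fell by 0.75. SQLE, the epoxidase that follows it, changed by -0.22 ± 0.04 and -1.0 ± 0.05, and DHCR7, the reductase of the last step, by -0.64 ± 0.05 and -1.14 ± 0.08. NSDHL and HSD17B7, which act together in removing methyl groups, fell in both clones, NSDHL by 0.47 and 0.56 and HSD17B7 by 0.60 and 0.64 on the log2 scale. HSD17B7 also has pseudogene copies in the table. LSS, which cyclizes oxidosqualene to lanosterol, was called in opposite directions, 0.37 ± 0.07 (adjusted p = 7.72e-05) in clone 1 and -0.41 ± 0.09 (adjusted p = 0.00145) in clone 3. SC5D, a sterol desaturase, was at 0.13 ± 0.05 (adjusted p = 0.0246) and -0.19 ± 0.06 (adjusted p = 0.0151), and each of these calls was lost when single libraries were left out, 4 of 6 in clone 1 (adjusted p up to 0.118) and 48 h replicate 1 in clone 3 (adjusted p = 0.0561).

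The 5 regulators split. INSIG1 showed the largest fall of any member, in shIRE1 clone 3. There it went from 599.6, 544 and 539.7 CPM at 0 h to 353, 325 and 347 CPM at 24 h and 118, 135 and 141 CPM at 48 h, with each time below the one before in every library. The log2 change was -0.72 ± 0.06 (adjusted p = 2.95e-07) at 24 h, -2.10 ± 0.07 (adjusted p = 1.65e-12) at 48 h and -1.76 ± 0.07 (adjusted p = 8.83e-12) at 72 h. In shIRE1 clone 1 it was at 308, 262 and 272 CPM at 0 h, rose to 383, 365 and 366 CPM at 24 h (0.40 ± 0.05, adjusted p = 1.70e-06) and was at 266, 244 and 273 CPM at 48 h, where it overlapped the 0 h libraries (-0.10 ± 0.05, adjusted p = 0.0852). Without 0 h replicate 2, INSIG1 was called lower in clone 1 at 48 h (-0.15, adjusted p = 0.0207). The responses of the clones differed by 1.99 ± 0.15 (adjusted p = 9.35e-14) on the log2 scale at 48 h.

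SREBF1, which encodes the SREBP best known for fatty acid genes, rose in both shIRE1 clones. It was at 68.7, 73.4 and 85.0 CPM at 0 h and 165, 136 and 128 CPM at 48 h in clone 1. SREBF1 was at 103, 119 and 141 CPM and then 156, 152 and 168 CPM in clone 3. The groups did not overlap in either clone, with log2 changes of 0.92 ± 0.10 (adjusted p = 1.25e-07) and 0.38 ± 0.15 (adjusted p = 0.0419). The call in clone 3 was lost without any 1 of 5 libraries, 0 h replicates 1 and 2 and all of the 48 h libraries (adjusted p from 0.0584 to 0.196). At 72 h the change there was 0.10 ± 0.15 (adjusted p = 0.609). SREBF2, which encodes the SREBP best known for cholesterol genes, was called in opposite directions. In clone 1 it went from 291, 298 and 304 to 350.0, 335 and 329 CPM (0.18 ± 0.04, adjusted p = 5.26e-04). SREBF2 went from 381, 406 and 428 to 315, 311 and 314 CPM in clone 3 (-0.38 ± 0.08, adjusted p = 4.78e-04). SCAP was at -0.15 ± 0.07 (adjusted p = 0.06) and 0.01 ± 0.09 (adjusted p = 0.902). STARD4, a carrier of cholesterol between membranes, was at 0.04 ± 0.06 (adjusted p = 0.605) in clone 1 and fell in clone 3 (-0.50 ± 0.06, adjusted p = 7.90e-06).

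Promoter sequences, from 250 bases before to 50 after the RefSeq start (build GRCh38.p14), were found for 28 of the 32 members. Only 1 start per gene symbol was used, so that a match at another start of a gene would be missed. They were searched on both strands for the sterol regulatory element TCACNCCAC, the E-box CACGTG, the CCAAT box bound by NF-Y, which is known to act beside SREBPs, and the element TGACGTGG bound by XBP1. TCACNCCAC was found in 1 member promoter (SREBF2) and in 1.15% of 27305 promoters. CACGTG was found in 4 member promoters (LSS, SC5D, SCAP and INSIG1, 14.3%) and in 7.43% of all. CCAAT was found in 18 member promoters (64.3%) and in 35.7% of all, and TGACGTGG in 0 and 0.795%. A match is a description of these letters, not a bound site. The 4 promoters printed are those of SREBF2, with the sterol regulatory element, of INSIG1 and SCD, the members with the largest falls in shIRE1 clone 3, and of TM7SF2, with the largest rise. Each reads 5′ to 3′ along the gene, with TCACNCCAC and CCAAT (or its complement ATTGG) in capitals.
SREBF2 chr22:41832855-41833154 (+ strand): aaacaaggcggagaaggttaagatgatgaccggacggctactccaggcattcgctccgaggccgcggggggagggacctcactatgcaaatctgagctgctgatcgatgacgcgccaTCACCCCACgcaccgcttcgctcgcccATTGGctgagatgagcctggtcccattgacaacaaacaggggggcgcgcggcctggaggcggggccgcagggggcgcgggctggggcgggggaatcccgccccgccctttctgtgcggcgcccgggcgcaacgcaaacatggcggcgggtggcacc
INSIG1 chr7:155297628-155297927 (+ strand): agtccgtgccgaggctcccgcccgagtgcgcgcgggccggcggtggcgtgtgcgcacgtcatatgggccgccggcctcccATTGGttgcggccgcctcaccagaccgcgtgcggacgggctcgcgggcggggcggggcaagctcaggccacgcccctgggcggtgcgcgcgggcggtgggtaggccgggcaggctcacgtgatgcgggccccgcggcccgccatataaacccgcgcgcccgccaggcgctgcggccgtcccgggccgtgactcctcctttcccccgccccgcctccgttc
SCD chr10:100346983-100347282 (+ strand): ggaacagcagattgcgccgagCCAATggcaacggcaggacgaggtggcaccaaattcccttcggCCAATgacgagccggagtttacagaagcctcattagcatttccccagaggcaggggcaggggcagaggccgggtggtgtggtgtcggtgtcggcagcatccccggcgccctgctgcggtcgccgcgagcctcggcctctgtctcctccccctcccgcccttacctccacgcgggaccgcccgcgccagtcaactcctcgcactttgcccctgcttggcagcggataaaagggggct
TM7SF2 chr11:65111622-65111921 (+ strand): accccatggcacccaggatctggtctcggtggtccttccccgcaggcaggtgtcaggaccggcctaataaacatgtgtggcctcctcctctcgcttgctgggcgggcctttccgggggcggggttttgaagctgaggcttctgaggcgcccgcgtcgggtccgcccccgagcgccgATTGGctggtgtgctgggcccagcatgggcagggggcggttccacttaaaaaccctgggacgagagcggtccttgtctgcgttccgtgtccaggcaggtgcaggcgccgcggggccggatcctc

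The element in SREBF2 begins 133 bases before the start and its CCAAT box 106 bases before it, on the other strand. In INSIG1 the CCAAT box lies at 170 and an E-box at 55 bases before the start, in SCD both CCAAT boxes lie at 229 and 186 bases, and in TM7SF2 the only one lies at 74 bases. A CCAAT box was thus present in HMGCS1, FDPS, NSDHL, HSD17B7, EBP, DHCR7, ACLY and SCD, which fell in both shIRE1 clones. It was also present in TM7SF2, the member that rose most. It was absent from the windows searched for CYP51A1, IDI1 and ELOVL6, which also fell in both clones. The windows of SREBF1 and LPIN1, which rose in both, lacked it as well. The IDI1 window (chr10:1056655-1056954) lay outside the annotated gene (1039152 to 1049119). The LPIN1 window (chr2:11746382-11746681) lay inside the annotated gene, which begins at 11677595.

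Of the 9 genes of fatty acid and lipid synthesis, SCD, the desaturase that makes oleate from stearate, fell most. It was at 1041, 953 and 964 CPM at 0 h, 667, 644 and 670.0 CPM at 24 h and 466, 427 and 453 CPM at 48 h in shIRE1 clone 1. In clone 3 it was at 1130.1, 1142 and 1122, then 645, 691 and 699 and then 271, 279 and 282 CPM. No library overlapped one of an earlier time in either clone up to 48 h, and the log2 change at 48 h was -1.14 ± 0.04 (adjusted p = 3.05e-14) and -2.04 ± 0.05 (adjusted p = 1.81e-13), that is 0.46 and 0.24 of the 0 h level. ACLY, the citrate lyase, had reached its lower level at 24 h in clone 1, from 767, 761 and 768 CPM at 0 h to 446, 454 and 479 CPM at 24 h and 477, 478 and 467 CPM at 48 h. In clone 3 it went from 609, 655 and 652 to 422, 425 and 432 CPM at 48 h. Its log2 change at 48 h was -0.69 ± 0.04 (adjusted p = 3.81e-12) and -0.59 ± 0.05 (adjusted p = 1.54e-07), and unlike for SCD the clones were not called different in this response (-0.11 ± 0.06, adjusted p = 0.178).

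LPIN1, a phosphatidate phosphatase that supplies diacylglycerol, rose in both clones. It went from 283, 277 and 259.5 to 507, 513 and 522 CPM in clone 1. LPIN1 went from 329, 346 and 345 to 627, 634 and 611 CPM in clone 3, again without overlap. The log2 change was 0.91 ± 0.04 (adjusted p = 1.08e-13) and 0.87 ± 0.04 (adjusted p = 2.03e-10), and the responses of the clones differed by 0.04 ± 0.06 (adjusted p = 0.676).

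FADS1 and ACSS2, singled out after their values were seen, differed most in response between the shIRE1 clones after INSIG1. FADS1 rose in clone 1 from 173, 161 and 166 to 227, 214 and 230.3 CPM at 48 h. It fell in clone 3 from 375, 386 and 381 to 129.9, 141 and 139.9 CPM (0.43 ± 0.04, adjusted p = 2.84e-08, and -1.48 ± 0.05, adjusted p = 7.41e-12), so that the clone with the higher level at 0 h had the lower level at 48 h. ACSS2 went from 12.2, 10.1 and 10.6 CPM at 0 h to 27.5, 30.4 and 34.1 at 24 h and 20.6, 19.3 and 19.1 at 48 h in clone 1. In clone 3 it was at 26.1, 24.9 and 26.1 CPM, then 32, 30.9 and 32.2 and then 15.1, 14.3 and 14.7 CPM, so that it rose at 24 h and fell below its 0 h level at 48 h (0.30 ± 0.06, adjusted p = 0.0013, and -0.82 ± 0.07, adjusted p = 3.71e-08). FADS2, the neighbouring desaturase gene, was at 0.23 ± 0.08 (adjusted p = 0.0161) in clone 1, a call lost without 0 h or 48 h replicate 2 (adjusted p = 0.0948 and 0.076), and fell in clone 3 (-0.84 ± 0.07, adjusted p = 8.10e-08). The exons of FADS1 and FADS2 overlap by 490 bases on opposite strands.

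With all libraries, ACACA and FASN, which build the saturated chain, passed the test in neither shIRE1 clone at 48 h. ACACA, which makes malonyl-CoA, was at 0.02 ± 0.04 (adjusted p = 0.67) and -0.18 ± 0.08 (adjusted p = 0.0737) in the shIRE1 clones. FASN, fatty acid synthase, was at -0.12 ± 0.13 (adjusted p = 0.447) and 0.53 ± 0.23 (adjusted p = 0.0589). FASN varied widely between libraries of one group, from 144 to 301 CPM in clone 3 at 0 h. ELOVL6, an elongase of long-chain fatty acids, was at -0.13 ± 0.05 (adjusted p = 0.0216) and -0.30 ± 0.05 (adjusted p = 1.07e-04), the first of which was lost without any 1 of 3 libraries (0 h replicate 1 and 48 h replicates 1 and 2, adjusted p up to 0.114).

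**Figure D3:**
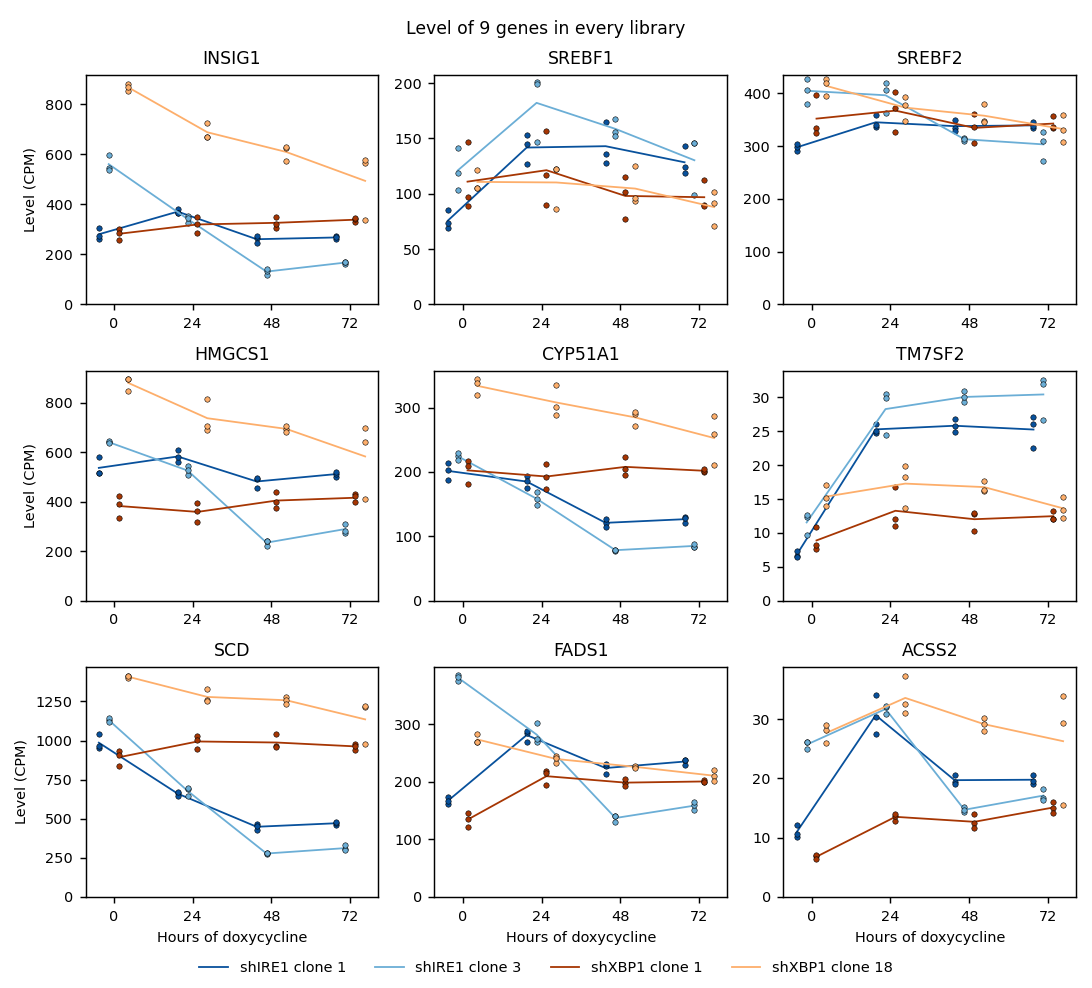
Level in CPM (y axis, from 0) of 9 genes against hours of Dox (x axis), with 1 point per library, shifted sideways by line, and lines through the means of 3 libraries. INSIG1 and FADS1 drop in shIRE1 clone 3, where they were highest of the shIRE1 clones at 0 h, SCD drops in both shIRE1 clones, and the low point of shXBP1 clone 18 at 72 h in INSIG1, HMGCS1, SCD and ACSS2 is replicate 3.

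The shIRE1 clones differed in their responses as well as in their start. At 48 h, the response of 20 members was higher in clone 1 than in clone 3 and that of 0 lower (all 18445 genes: 17.3% higher, 13.6% lower), with a median log2 difference of 0.55 over the members and 0.02 over all genes. The largest differences were those of INSIG1, given above, FADS1 (1.90 ± 0.07, adjusted p = 7.75e-22), ACSS2 (1.66 ± 0.19, adjusted p = 9.20e-09), HMGCS1 (1.29 ± 0.14, adjusted p = 3.40e-09) and MSMO1 (1.24 ± 0.15, adjusted p = 1.05e-08). Responses and starting levels share the 0 h libraries, so that these differences are not independent of those at 0 h. ERN1 itself fell by 0.66 in clone 1 and by 1.86 in clone 3 on the log2 scale. Its mean level was 152 CPM in clone 1 and 438 CPM in clone 3 at 0 h, and 96.4 and 121 CPM at 48 h. Clone 3 thus started from more ERN1 and did not end with less than clone 1. The part of these ERN1 differences in the members' responses was not tested.

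More members fell from 24 to 48 h than from 48 to 72 h in both shIRE1 clones. In shIRE1 clone 1, 17 members fell and 1 rose (LPIN1) from 24 to 48 h (all genes: 14.3% and 16.0%), and in clone 3, 27 fell and 1 rose (LPIN1 again, all genes: 17.4% and 17.2%). From 48 to 72 h, 0 members passed in clone 1 (edgeR, 0.869% of all genes in either direction, 4 members at an unadjusted p under 0.05, 0 by DESeq2). In clone 3 HMGCS1, INSIG1 and ELOVL6 rose (0.936% of all genes in either direction), while 48 h replicate 1, 48 h replicate 2 and 72 h replicate 2 each decided this count, which was 0, 1 and 1 without them. In both shXBP1 clones, 0 members passed in either step with edgeR and with DESeq2. There 0.00% and 0.0120% of all genes passed in clone 1 and 0.00% and 0.00% in clone 18, and at most 3 members reached an unadjusted p under 0.05 with edgeR and at most 5 with DESeq2.

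**Figure D4:**
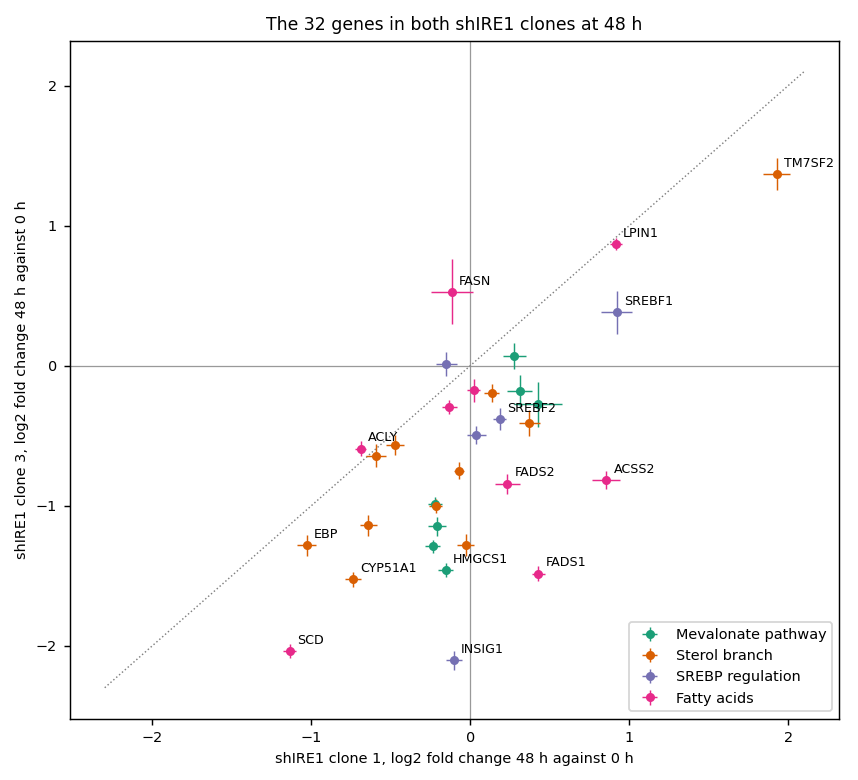
Log2 fold change at 48 h against 0 h in shIRE1 clone 1 (x axis) and clone 3 (y axis), 1 point per gene colored by role, with bars of 1 SE and a dotted line of equal change. TM7SF2 and LPIN1 lie high in both and SCD, EBP and CYP51A1 low in both, while INSIG1 and FADS1 lie far below the line, at -2.10 and -1.48 in clone 3.

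Fewer members passed the test in the shXBP1 clones. In shXBP1 clone 1, 5 rose and 2 fell at 24 h (13.9% and 12.8% of 16603 genes), 4 rose and 3 fell at 48 h (16.6% and 15.5%) and 6 rose and 5 fell at 72 h (16.8% and 16.8%). Single libraries decided some of these counts. At 24 h it was 11 without 24 h replicate 2 and at 48 h it was 11 without 0 h replicate 3, while at 72 h it was 6 without 0 h replicate 1, 5 without 72 h replicate 2 and 5 without 72 h replicate 3. ACSS2 rose most, from 6.83, 7.15 and 6.36 CPM at 0 h to 14.0, 12.4 and 11.6 CPM at 48 h (0.88 ± 0.09, adjusted p = 5.32e-05). FADS1 rose from 121, 146 and 135 to 197, 204 and 193 CPM (0.55 ± 0.07, adjusted p = 1.52e-04), and neither gene's groups overlapped. LPIN1 (0.24 ± 0.04, adjusted p = 0.00194) and ACACA (0.26 ± 0.05, adjusted p = 0.00164) were higher by less, and EBP (-0.33 ± 0.06, adjusted p = 0.00178), DHCR7 (-0.38 ± 0.10, adjusted p = 0.0136) and NSDHL (-0.27 ± 0.05, adjusted p = 0.00178) lower. The DHCR7 call was lost without 0 h replicate 1 or 48 h replicate 2 (adjusted p = 0.062 and 0.0683). SCD was at 839, 931 and 908 CPM at 0 h and 965, 1039.8 and 957 CPM at 48 h (0.13 ± 0.05, adjusted p = 0.0769), with every 48 h library above those of 0 h.

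In shXBP1 clone 18, 0 members passed at 24 h with edgeR (0.291% of 16860 genes rose and 1.30% fell), while 8 had an unadjusted p under 0.05 and DESeq2 called 1. At 48 h 0 rose and 3 fell (2.28% and 3.50% of all genes), namely FADS1 (-0.28 ± 0.05, adjusted p = 0.00652), FADS2 (-0.46 ± 0.12, adjusted p = 0.0349) and FDPS (-0.24 ± 0.05, adjusted p = 0.0216), and at 72 h 1 rose (STARD4) and 8 fell (4.41% and 5.55%). For the fit without the library that stood with clone 1, shares of all genes are not given here. In that fit 6 members fell at 24 h, 8 fell and 1 rose at 48 h, and 9 fell and 1 rose at 72 h. INSIG1 was the member with the largest fall there, from 854, 882 and 868 CPM at 0 h to 626, 629 and 574 CPM at 48 h. At 72 h its libraries stood at 565, 579 and 338 CPM, the last being the one in doubt, and the log2 change was -0.81 ± 0.14 (adjusted p = 0.00443) with it and -0.60 without it (adjusted p = 7.66e-06). At 48 h the change was -0.51 ± 0.14 (adjusted p = 0.0548) with it in the fit and past the threshold without it (adjusted p = 1.04e-05). SCD changed by -0.30 ± 0.07 at 72 h with it and by -0.21 without it, HMGCS1 by -0.59 ± 0.14 and -0.39, and EBP by -0.55 ± 0.22 and -0.25. The loss of any 0 h library of clone 18 left the count at 72 h at 3 to 5, and that at 48 h at 0 or 1 (1 also without 48 h replicate 1 or 2).

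With all libraries, no member was called the same way in both shXBP1 clones at 24 or 48 h by edgeR, and at 72 h STARD4 rose in both (called the same way among the 16197 genes tested in both: 0.809%, 2.01% and 3.64%). The STARD4 rise (0.35 ± 0.12, adjusted p = 0.0454 in clone 1 and 0.35 ± 0.08, adjusted p = 0.0185 in clone 18) rested on single libraries. In clone 1 the call was lost without 0 h replicate 1 (adjusted p = 0.112) or any of the 72 h libraries (adjusted p from 0.069 to 0.0976). In clone 18 it was lost without 0 h replicate 1 or 3 (adjusted p = 0.0869 and 0.0697). Without the clone 18 library in doubt, EBP fell in both clones as well. At 24 h it changed by -0.23 ± 0.06 (adjusted p = 0.0143) in clone 1 and by -0.21 in clone 18 without that library (adjusted p = 0.0386), and at 72 h by -0.28 ± 0.06 (adjusted p = 0.00451) and -0.25 (adjusted p = 0.0244). The EBP call of clone 1 at 24 h was lost without 0 h replicate 1 or 24 h replicate 1 (adjusted p = 0.0658 and 0.0643).

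FADS1 was called higher in clone 1 and lower in clone 18 at 48 and 72 h, as INSIG1 was at 72 h (higher in clone 1 and lower in clone 18 among all genes: 0.568% at 48 h and 0.827% at 72 h). Without the library in doubt FADS1 was so called at 24 h as well. The FADS1 call in clone 18 at 48 h was lost without 0 h replicate 3 (adjusted p = 0.0686). The INSIG1 rise in clone 1 at 72 h (0.24 ± 0.08, adjusted p = 0.0325) did not survive leaving out replicate 1 of 0 h or replicate 2 or 3 of 72 h (adjusted p = 0.0814, 0.0659 and 0.0713). The response at 48 h was higher in clone 1 than in clone 18 for 10 members and lower for 2 (all 18445 genes: 13.1% and 11.0%), a split that, as for the shIRE1 clones, rests on the same 0 h libraries as the difference in starting level.

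The question of the series, how silencing of IRE1 differs from that of XBP1, was put to the members by testing the mean response of both shIRE1 clones minus that of both shXBP1 clones in one fit of 48 libraries. This difference passed for 17 members at 24 h (38.7% of 18445 genes), 25 at 48 h and 23 at 72 h (55.3% of all genes). Without the shXBP1 clone 18 library in doubt the count was 19 at 24 h, 25 at 48 h and 23 at 72 h. Shares of all genes are not given for that fit. At 48 h, 20 members responded lower and 5 higher to shIRE1 than to shXBP1 (all genes: 28.0% lower and 28.9% higher), and the median log2 difference was -0.43 over the members and 0.04 over all genes. By role, 4 of 7 mevalonate genes, 8 of 11 sterol branch genes, 2 of 5 regulators and 6 of 9 fatty acid genes were lower, against 28.0% of all genes.

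SCD differed most, by -1.57 ± 0.06 (adjusted p = 1.07e-24), with a fall in both shIRE1 clones and values of 0.13 ± 0.05 and -0.16 ± 0.07 in the shXBP1 clones. CYP51A1 (-1.03 ± 0.08, adjusted p = 1.11e-14) and EBP (-0.92 ± 0.14, adjusted p = 4.58e-07) followed in the sterol branch. INSIG1 differed by -0.95 ± 0.10 (adjusted p = 3.20e-10), but this mean held a change of -2.10 in shIRE1 clone 3 and of -0.10 in clone 1. FADS1 (-0.67 ± 0.05, adjusted p = 4.62e-14) was likewise a mean of opposite changes in each pair of clones. HMGCS1 (-0.67 ± 0.10, adjusted p = 4.14e-07) and FDPS (-0.67 ± 0.04, adjusted p = 3.29e-16) were lower in the mevalonate pathway. On the other side, TM7SF2 (1.37 ± 0.14, adjusted p = 4.36e-11), LPIN1 (0.79 ± 0.04, adjusted p = 5.72e-20) and SREBF1 (0.78 ± 0.19, adjusted p = 4.54e-04) responded higher to shIRE1. FASN (0.68 ± 0.27, adjusted p = 0.0284) and PMVK (0.28 ± 0.11, adjusted p = 0.0339) passed as well, but FASN lost the call without any 1 of 7 libraries and PMVK without any 1 of 10. SREBF2 was at 0.05 ± 0.07 (adjusted p = 0.6), a mean of opposite calls in the shIRE1 clones.

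**Figure D5:**
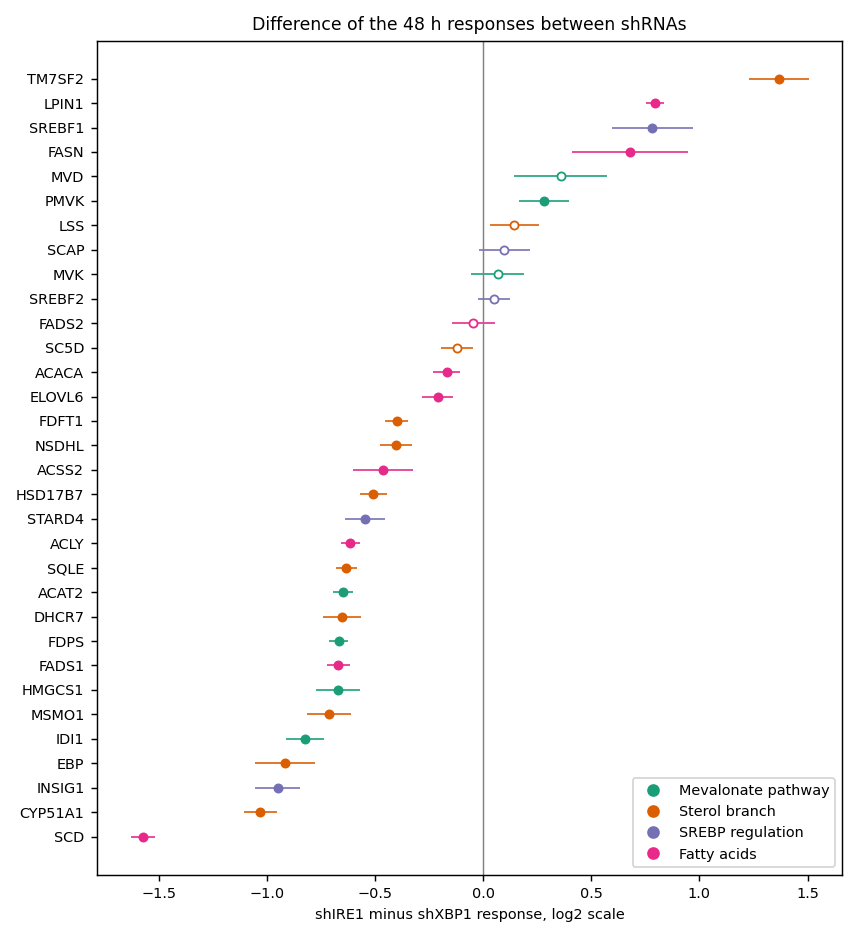
Difference between the mean response of the shIRE1 clones and that of the shXBP1 clones at 48 h (x axis, log2 scale) for the 32 genes (y axis, sorted), colored by role, with bars of 1 SE. Filled points have an adjusted p under 0.05 in the edgeR fit of 48 libraries. They run from SCD at -1.57 to TM7SF2 at 1.37.

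Of 30 further genes of the same pathways, such as cholesterol exporters, esterifying enzymes, acyl-CoA synthetases and SREBP proteases, 28 were tested in the shIRE1 clones. At 48 h 10 rose and 13 fell in clone 1, and 9 rose and 14 fell in clone 3, with medians of -0.18 and -0.26. Of all genes 33.9% rose and 31.5% fell in clone 1 and 31.6% rose and 31.6% fell in clone 3, so that the rises among the 28 genes were near the background share. ABCA1, which exports cholesterol from the cell, rose most, by 2.55 ± 0.08 in clone 1 and 3.27 ± 0.08 in clone 3 on the log2 scale. It rose in shXBP1 clone 1 as well (0.80 ± 0.15, adjusted p = 0.00189). In clone 18 it was at 0.16 ± 0.29 (adjusted p = 0.812), in a fit that held the library in doubt. INSIG2, the second INSIG protein, fell most, by 1.08 and 1.41 on the log2 scale in the shIRE1 clones, and in shXBP1 clone 1 it rose (0.45 ± 0.11, adjusted p = 0.00969). In shIRE1 clone 1 INSIG2 thus fell at 48 h while INSIG1 overlapped its 0 h libraries.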

How the data were processed

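RNA of 48 libraries (TruSeq Stranded mRNA, single-end reads) was counted by the authors, who deposited raw counts per gene for 58302 genes and a table of log2 CPM for 18401 genes. The submitters' notes name GSNAP, GRCh37/hg19, edgeR 3.32.1, limma 3.46.0 and R 4.1.3. Whether counting used strand is not given in the sources used here, so genes that overlap on opposite strands are uncertain. The deposited log2 values matched those edgeR gives for a prior count of 2.

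Groups came from the labels, as biological triplicates. The deposited counts were filtered (filterByExpr, min.count 10, min.total.count 15), scaled by TMM and tested with edgeR 4.0.16 (quasi-likelihood, R 4.3.3) in a fit of the 12 libraries of each clone, or of all 48 libraries for differences between clones, with Benjamini-Hochberg adjustment over all genes tested and a threshold of 0.05. The SE is the absolute log2 fold change divided by the square root of F. Depth was 19177855 to 40767202 counts per library. Alternatives used DESeq2 1.42.0, limma 3.58.1 on the deposited log2 table, RLE factors, no filter, other sets of libraries, a replicate block and fits that left out 1 library. The scripts were tested on simulated data. The members and lists were chosen with earlier results of these data known. Genes named were, for each role, up to 2 rises and 2 falls with the largest mean change at 48 h among genes called in the same direction in both clones of a hairpin set, plus SREBF2 and INSIG1. Exon lengths, overlaps and promoters come from GENCODE 44 and RefSeq on GRCh38, not the build in the submitters' notes. Some genes of these pathways are not reported here.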

Additional observations from a re-analysis of the deposited data

Results flagged for a closer look

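The response at 48 h differed between shIRE1 and shXBP1, by a test of the difference itself (edgeR, 48 libraries, adjusted over all 18445 genes), for 25 members. Values are log2 differences, with those below 0 lower under shIRE1. In the mevalonate pathway the difference was -0.65 for ACAT2, -0.67 for HMGCS1, 0.28 for PMVK, -0.82 for IDI1 and -0.67 for FDPS. In the sterol branch the difference was -0.40 for FDFT1, -0.63 for SQLE, -1.03 for CYP51A1, 1.37 for TM7SF2, -0.71 for MSMO1, -0.40 for NSDHL, -0.51 for HSD17B7, -0.92 for EBP and -0.65 for DHCR7. In the regulators the difference was 0.78 for SREBF1, -0.95 for INSIG1 and -0.55 for STARD4. In fatty acid and lipid synthesis the difference was -0.61 for ACLY, -0.46 for ACSS2, -0.17 for ACACA, 0.68 for FASN, -0.21 for ELOVL6, -1.57 for SCD, -0.67 for FADS1 and 0.79 for LPIN1. The values of ACSS2 and FADS1 held opposite calls in the shIRE1 clones, higher in clone 1 and lower in clone 3. The ACACA call was lost without shIRE1 clone 3 0 h replicate 2 (adjusted p = 0.0557).

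Between the shIRE1 clones, the same test of the difference itself passed for 20 members at 48 h, each higher in clone 1 than in clone 3. In the mevalonate pathway the difference was 0.75 for ACAT2, 1.29 for HMGCS1, 0.48 for MVK, 0.93 for IDI1 and 1.04 for FDPS. In the sterol branch the difference was 0.67 for FDFT1, 0.77 for SQLE, 0.77 for LSS, 0.78 for CYP51A1, 0.55 for TM7SF2, 1.24 for MSMO1, 0.32 for SC5D and 0.49 for DHCR7. In the regulators the difference was 0.55 for SREBF2, 1.99 for INSIG1 and 0.52 for STARD4. In fatty acid and lipid synthesis the difference was 1.66 for ACSS2, 0.89 for SCD, 1.90 for FADS1 and 1.06 for FADS2.

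Between the shXBP1 clones, it passed for 12 members at 48 h, with values above 0 higher in clone 1. In the mevalonate pathway the difference was 0.42 for HMGCS1, -0.50 for PMVK and 0.29 for FDPS. In the sterol branch the difference was 0.55 for MSMO1 and -0.29 for NSDHL. In the regulators the difference was 0.72 for INSIG1. In fatty acid and lipid synthesis the difference was 0.83 for ACSS2, 0.36 for ACACA, 0.31 for SCD, 0.84 for FADS1, 0.41 for FADS2 and 0.31 for LPIN1. These comparisons share their 0 h libraries within each clone, and their causes were not tested. No group had the 4 samples needed to test for a single outlying sample.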

How the results depend on the processing

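Of 319 counts of called members under an alternative, 284 stayed within 1.5 times the reported count. The counts of the shIRE1 clones against 0 h and of the shIRE1 minus shXBP1 responses at 48 and 72 h did so under every alternative run. RLE factors and limma on the deposited log2 table moved no count by more. The split of the shIRE1 minus shXBP1 responses into lower and higher varied with the clones paired. At 24 h, shIRE1 clone 1 against shXBP1 clone 1 gave 3 lower and 7 higher (25.8% of all genes in either direction). At that time shIRE1 clone 3 against shXBP1 clone 18 gave 9 lower and 4 higher (28.5%). At 48 and 72 h more members were lower than higher in both pairs. At 48 h, shIRE1 clone 1 against shXBP1 clone 1 gave 12 lower and 7 higher (42.2% of all genes in either direction). The pair of shIRE1 clone 3 and shXBP1 clone 18 gave 19 lower and 2 higher (48.4%). At 72 h these pairs gave 11 lower and 5 higher (37.9%) and 19 lower and 2 higher (46.5%). With all 48 libraries in the fit, 12 members were called in shXBP1 clone 1 at 48 h (7 reported), as were 36.2% of all genes. In shXBP1 clone 18 there were 3 at 24 h (0 reported) and 7 at 48 h (3 reported), beside 4.54% and 10.9% of all genes. With no filter on low counts, where genes with few counts enter the share, there were 13 in shXBP1 clone 1 at 48 h (16.1% of all genes). In shXBP1 clone 18 there were 2, 7 and 16 (9 reported) at 24, 48 and 72 h (1.66%, 4.22% and 7.99% of all genes). From 48 to 72 h there was 1 in shIRE1 clone 1 (0 reported) and 5 in shXBP1 clone 18 (0 reported), beside 0.733% and 1.67% of all genes. With only the 6 libraries compared, shXBP1 clone 18 had 5, 11 and 1 at 24, 48 and 72 h (5.37%, 18.7% and 2.78% of all genes). The fits of 24 and 48 h did not hold the clone 18 library in doubt, and that of 72 h did. DESeq2 called 1 and 5 in that clone at 24 and 48 h (4.32% and 9.76% of all genes). It called 5 from 48 to 72 h in shIRE1 clone 3 (3 reported), beside 1.36% of all genes. In the shIRE1 minus shXBP1 response at 24 h, the clone 1 pair alone gave 10 members (17 reported), beside 25.8% of all genes. In that pair ACACA turned to -0.25 and SQLE to 0.059 at 24 h, and in the pair of shIRE1 clone 3 and shXBP1 clone 18 PMVK turned to -0.069 at 48 h. The causes of these shifts were not tested.

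Shares of all genes are not given here for fits that left out 1 library. Leaving out single libraries gave 6 to 11 members in shXBP1 clone 1 at 24 h, 6 to 11 at 48 h and 5 to 11 at 72 h, and 0 to 6, 0 to 9 and 3 to 12 in shXBP1 clone 18. It gave 0 to 2 in shIRE1 clone 3 from 48 to 72 h, 22 to 24 and 24 to 27 in shIRE1 clones 1 and 3 at 48 h, and 23 to 25 for the difference at 48 h. The fit without shIRE1 clone 3 24 h replicate 1 was chosen after seeing the data. The replicate numbers did not pair the samples (0, 1, 4 and 0 of 18 correlations per clone were over 0.1). With the number as a replicate block, shXBP1 clone 1 had 6 members at 72 h in place of 11 (28.0% of all genes). Every other count stayed within 1.5 times. At 3 libraries a group, the low counts in shXBP1 clone 18 do not show that these genes kept their level.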
